A study of Mus musculus with 18 samples.

Results

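Sterol regulatory element binding proteins (SREBPs) are the transcription factors that set how much cholesterol and fatty acid a cell makes. The 29 genes described here are their classical targets in these pathways together with the factors themselves and the proteins that hold or escort them. They were chosen by name: each is a row of the count table whose Ensembl gene ID carries the listed symbol in GENCODE M21, an annotation of the mouse genome build GRCm38. Each of the 29 symbols matched 1 of 48794 rows, and all 29 were among the 13177 genes with enough counts to be tested. By role, 7 belong to the mevalonate arm that leads from acetyl-CoA to farnesyl diphosphate and 11 to the steps from squalene to cholesterol. A further 4 are regulators, 1 is a sterol carrier, and 6 make or desaturate fatty acids.

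Poly(A) RNA was sequenced from bone marrow-derived macrophages of male C57BL/6 mice, whose marrow cells had been matured for 7 days with M-CSF at 50 ng/ml. During the following 24 h every group, Control included, received M-CSF at 10 ng/ml. Control had no other cytokine, IL4_IL13 had IL-4 and IL-13 as well, and IL4_IL13_TNFa had IL-4, IL-13 and TNFa, each at 10 ng/ml, while no group had TNFa alone. Each group held 6 libraries of 14793404 to 20056125 counts, and since no label names a separate animal or culture behind a library, p-values measure a spread between libraries that may be technical.

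As background, SREBPs are made as membrane proteins of the endoplasmic reticulum. When sterols are scarce, SCAP escorts them to the Golgi, where proteases free the part that enters the nucleus; when sterols are plentiful, INSIG proteins hold SCAP back. SREBP-2 (Srebf2) mainly drives cholesterol synthesis and SREBP-1c, a product of Srebf1, mainly fatty acid synthesis. In macrophages sterol synthesis and the efflux of cholesterol through LXR targets are regulated against each other.

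SREBPs bind sterol regulatory elements in promoters and act together with the factor NF-Y, which binds the letters CCAAT. RefSeq promoter windows (GRCm38.p6, 250 bases before to 50 after a start) were at hand for 23 of the 29 members. CCAAT stood on either strand in a window of 19 of these 23 (82.6%), against 41.1% of all 27025 genes with a window. The exact letters TCACNCCAC of a sterol regulatory element stood in 1 of 23 (4.35%), Hmgcs1, against 1.44% of all genes, and with at most 1 letter changed in 10 of 23 (43.5%) against 26.7%. The palindrome CACGTG stood in 5 of 23 (21.7%) against 8.09%. The letter matches are descriptions and not binding sites, and a window without them says nothing about the factors. The stretch upstream of the start is shown for 3 members, all with CCAAT in the window. They are Hmgcs1, which holds the exact element, and Mvd and Nsdhl, 2 of the 7 members that rose in all 3 comparisons. Among these 7, Acaca had no CCAAT in its window and Scd2 had no window. Capitals mark CCAAT (read as ATTGG on the other strand) and, in Hmgcs1, the exact element TCACCCCAC and TCACTCCGC with 1 letter changed, and none of the marked stretches overlap. The Hmgcs1 stretch is chr13:119690101-119690350 on the plus strand, the Mvd stretch chr8:122443423-122443672 on the minus strand and the Nsdhl stretch chrX:72918412-72918520 on the plus strand, each 5′ to 3′.
Hmgcs1: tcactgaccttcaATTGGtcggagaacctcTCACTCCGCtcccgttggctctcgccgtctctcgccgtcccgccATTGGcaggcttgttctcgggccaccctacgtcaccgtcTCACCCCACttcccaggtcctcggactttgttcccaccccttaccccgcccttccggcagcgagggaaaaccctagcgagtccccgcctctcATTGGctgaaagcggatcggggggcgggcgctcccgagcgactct
Mvd: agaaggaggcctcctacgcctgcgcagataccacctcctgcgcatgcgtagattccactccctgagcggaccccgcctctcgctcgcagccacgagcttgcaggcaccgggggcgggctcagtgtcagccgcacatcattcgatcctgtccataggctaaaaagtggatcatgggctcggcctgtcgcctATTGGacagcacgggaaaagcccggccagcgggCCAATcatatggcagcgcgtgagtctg
Nsdhl: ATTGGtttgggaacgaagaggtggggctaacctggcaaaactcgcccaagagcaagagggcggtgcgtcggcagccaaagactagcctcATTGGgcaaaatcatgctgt
The Hmgcs1 stretch holds CCAAT at 3 places besides its element, and the Mvd and Nsdhl stretches hold it at 2 places each.

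The cells carried macrophage transcripts, and 1 control library stood apart. The summed level of 8 macrophage markers was 13900 to 24850 CPM (counts scaled to library sizes adjusted by TMM) in Control, 7958 to 9690 in IL4_IL13 and 8215 to 9017 in IL4_IL13_TNFa, and 7 of the 8 were lower in IL4_IL13 than in Control. All 5 T and NK cell markers and all 7 neutrophil markers were under 1 CPM in every group, with Cd3d and Ly6g at 0 counts, as were 4 of 5 B cell, 3 of 4 dendritic cell and 4 of 5 adipocyte markers. The remaining ones were Cd79b, a B cell receptor subunit, at means of 1.57 CPM in Control, 0.725 in IL4_IL13 and 0.735 in IL4_IL13_TNFa, the dendritic cell factor Zbtb46 at 0.709, 2.76 and 33.9, and the fatty acid-binding protein gene Fabp4 at 2.89, 25.1 and 3.46. The summed dendritic cell markers ranged over 1.11 to 3.03, 2.38 to 5.09 and 33.2 to 36.0 CPM in the 3 groups and the summed adipocyte markers over 2.26 to 4.24, 17.3 to 37.1 and 2.71 to 4.72, and their part in the member levels was not tested. Summed stromal markers, led by collagen genes, ranged from 19.3 to 612.5 CPM in Control, 57.2 to 526.8 in IL4_IL13 and 61.5 to 356.4 in IL4_IL13_TNFa, and none of the 7 tested passed in any comparison. Control replicate 1 was above the mean of the other controls in 29 of 29 members and above every other control in 26, with a median log2 difference of 0.63. In that library 12 proliferation genes summed to 3043 CPM against 806.3 to 1452 in the other controls, the macrophage markers to 13900 against 20850 to 24850, and the stromal markers to 19.3 against 103.6 to 612.5. Counts of members are therefore given with and without it, and so are the members' log2 fold changes where leaving it out changed the call or moved a called value by over 1.5 times.

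The median log2 fold change of the 29 members was above that of all genes in each comparison. With IL-4 and IL-13, 15 of 29 members (51.7%) rose and 2 (6.90%) fell, where 29.3% of all genes tested rose and 29.7% fell. Their median log2 fold change was 0.34, against -0.002 over all genes. With TNFa added to these cytokines, 11 members (37.9%) rose and 2 (6.90%) fell, where 30.3% of all genes rose and 29.3% fell; with scaling by library totals alone, 9 (31.0%) rose and 7 (24.1%) fell, where 17.6% of all genes rose and 46.2% fell. With TMM scaling but without Control replicate 1 in the fit, 18 members (62.1%) rose with TNFa added and 4 (13.8%) fell. In that fit 33.3% of all genes rose and 32.1% fell. With TMM scaling and all 18 libraries, the share that rose with TNFa was near that of all genes, and the median was 0.30 against 0.003. With the 3 cytokines against Control, 22 members (75.9%) rose and 2 (6.90%) fell, where 36.4% of all genes rose and 37.3% fell, and with scaling by library totals alone 17 (58.6%) rose and 5 (17.2%) fell, where 24.9% of all genes rose and 51.4% fell. The median was 0.65 against -0.02. The tests were edgeR quasi-likelihood F tests, with p-values adjusted by Benjamini and Hochberg's method across the 13177 genes and a threshold of 0.05, and the comparisons share libraries, so their counts are not independent. Scaling by library totals moved the median of all genes to -0.20 for added TNFa and -0.27 for the 3 cytokines. The members' medians were then 0.09 and 0.40. The same scaling lowered the share of called genes that rose from 50.9% to 27.5% and from 49.4% to 32.7%.

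**Figure D1:**
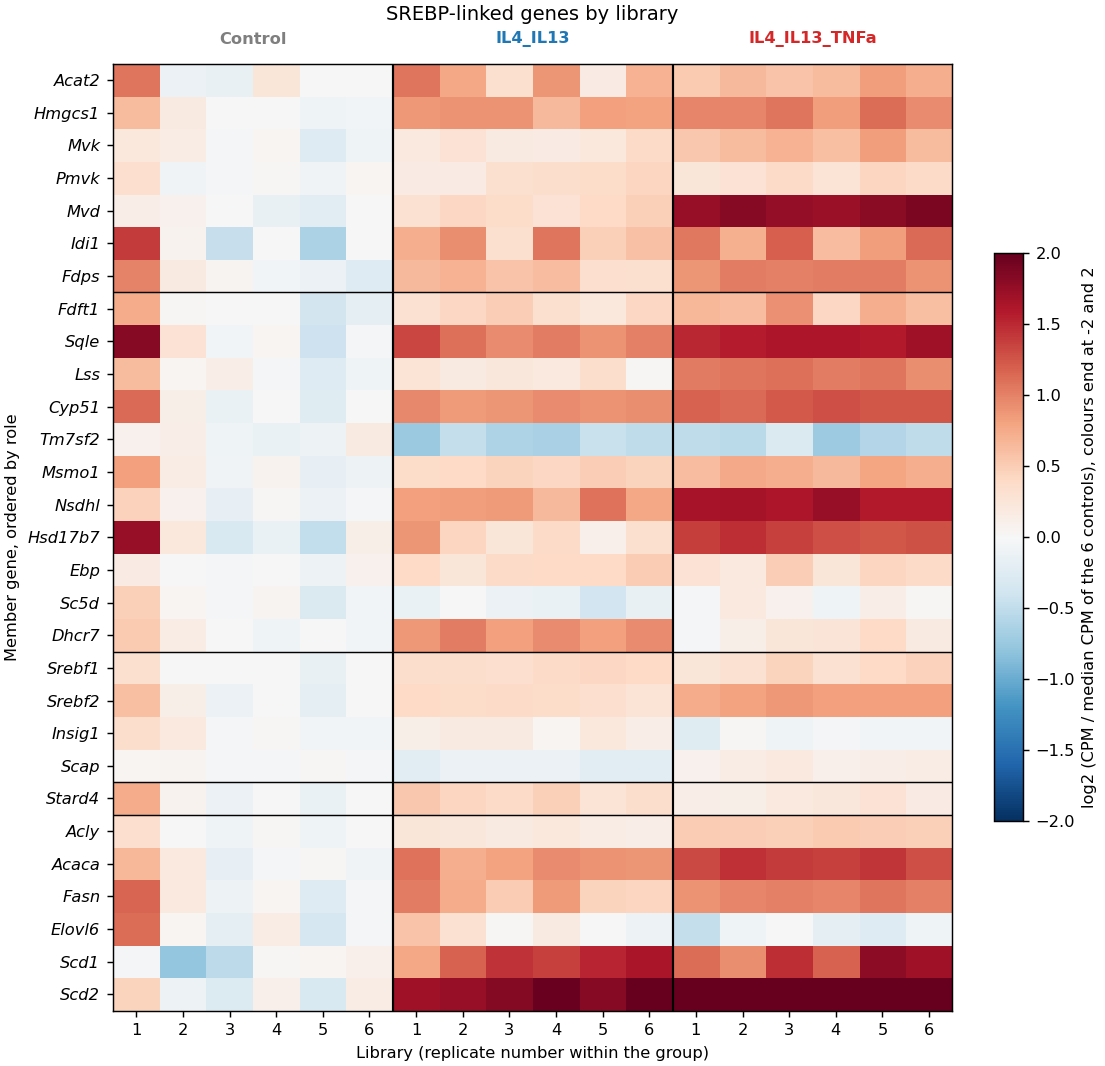
Each cell is the log2 ratio of a member's CPM in 1 library to the median of the 6 controls, with members in rows by role and libraries in columns by group. Control replicate 1 is above the other controls in most rows, Mvd, Nsdhl and Scd2 deepen from IL4_IL13 to IL4_IL13_TNFa, Dhcr7 is highest in the middle block, and Tm7sf2 is low in both cytokine groups.

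Members whose libraries did not overlap between groups were also counted. In IL4_IL13, 9 members lay above every control library and 2 below, where 12.5% and 14.2% of all genes did. Leaving out Control replicate 1, 21 lay above and 2 below, against 27.0% and 24.3%. For TNFa added, 14 members lay above every IL4_IL13 library and 2 below, where 23.3% and 21.6% of all genes did. Against Control, 12 members lay above every control library with the 3 cytokines and 1 below, against 26.1% and 25.1%, and without Control replicate 1 these were 24 and 1, against 34.1% and 32.4%. Without that library the tests called 25 members higher and 2 lower for IL-4 and IL-13 (35.5% and 32.5% of all genes). They called 18 higher and 4 lower for added TNFa (33.3% and 32.1%), and 25 higher and 1 lower for the 3 cytokines (39.0% and 38.7%).

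The mevalonate arm begins with acetoacetyl-CoA and HMG-CoA synthesis and ends with farnesyl diphosphate. Of its 7 members, 4 rose and none fell with IL-4 and IL-13, 3 rose and none fell with TNFa added, and 6 rose and none fell with the 3 cytokines, where 29.3%, 30.3% and 36.4% of all genes rose. Leaving out Control replicate 1, 7, 4 and 7 of the 7 rose and none fell, against 35.5%, 33.3% and 39.0% of all genes. Hmgcs1, HMG-CoA synthase, lay at 59.9, 63.8 and 99.2 CPM in Control (lowest, median and highest of 6 libraries), at 100.1, 114.9 and 119.4 in IL4_IL13 and at 113.5, 125.2 and 137.8 in IL4_IL13_TNFa. All cytokine-treated libraries were above all controls, and the treated groups overlapped each other. Its log2 fold change was 0.69 ± 0.10 with IL-4 and IL-13 (± an approximate standard error throughout; edgeR adjusted p = 9.89e-06). With TNFa added it was 0.16 ± 0.10 and did not pass (edgeR adjusted p = 0.181), although without Control replicate 1 this same difference passed and with scaling by library totals its sign changed (-0.05). Mvd, mevalonate diphosphate decarboxylase, which makes isopentenyl diphosphate, lay at 15.5, 18.1 and 19.8 CPM in Control, at 22.1, 23.5 and 25.2 in IL4_IL13 and at 59.5, 62.0 and 66.4 in IL4_IL13_TNFa. No libraries of any pair of groups overlapped, and the step at TNFa was the larger one. The log2 fold changes were 0.39 ± 0.06 with IL-4 and IL-13 (edgeR adjusted p = 1.54e-05), 1.41 ± 0.06 with TNFa added (edgeR adjusted p = 2.3e-13) and 1.81 ± 0.06 with the 3 cytokines (edgeR adjusted p = 2.96e-15). Control replicate 1 was close to the other controls for Mvd, at 1.13 times their mean.

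The 2 kinases of the arm moved less. Mvk, mevalonate kinase, rose by a log2 fold change of 0.23 with IL-4 and IL-13 and 0.42 with TNFa added, and its IL4_IL13_TNFa libraries, at 17.6 to 21.7 CPM, lay above all others. Pmvk, phosphomevalonate kinase, rose by 0.25 on the log2 scale with IL-4 and IL-13 and by 0.29 with the 3 cytokines. For TNFa added its value was 0.03 and did not pass, and with scaling by library totals it turned to -0.17, while the value for the 3 cytokines fell to 0.04 and did not pass. Fdps, farnesyl diphosphate synthase, was at a mean of 8.92 ± 3.28 CPM in Control, 11.4 ± 1.25 in IL4_IL13 and 15.4 ± 0.713 in IL4_IL13_TNFa (SD, n = 6). It passed for TNFa added, at 0.44 ± 0.16 (edgeR adjusted p = 0.0222), with no overlap of libraries, but not when IL4_IL13 replicate 6 was left out, nor with scaling by library totals (0.23). It also passed for IL-4 and IL-13 (0.58) without Control replicate 1. Acat2, the cytosolic acetoacetyl-CoA thiolase, did not pass in any comparison with all 18 libraries, with log2 fold changes of 0.45, -0.04 and 0.41, but without Control replicate 1 it rose in both comparisons with Control (0.70 and 0.66). Idi1, isopentenyl diphosphate isomerase, was among the members with the fewest counts, at 2.09 to 8.54 CPM in Control, and passed only for the 3 cytokines (0.70 ± 0.26, edgeR adjusted p = 0.0232), a call lost without Control replicate 3, without the filter on low counts and with scaling by library totals. Idi1 rose with IL-4 and IL-13 (0.88, from 0.46) and with the 3 cytokines (1.12) without Control replicate 1. With the replicate number as a block, Acat2 passed in both comparisons with Control (0.47 in each) and Fdps also passed for IL-4 and IL-13 (0.37).

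From squalene to cholesterol the 11 members did not move as 1 group. With IL-4 and IL-13, 4 rose and 1 fell; with TNFa added, 3 rose and 1 fell; with the 3 cytokines, 8 rose and 1 fell. Of all genes 29.3%, 30.3% and 36.4% rose in these comparisons and 29.7%, 29.3% and 37.3% fell. In the fit without Control replicate 1, 9, 8 and 9 of the 11 rose and 1 fell in each, against 35.5%, 33.3% and 39.0% of all genes that rose. Nsdhl, a sterol dehydrogenase that removes the methyl groups at carbon 4, lay at 14.2, 15.8 and 21.9 CPM in Control, at 24.9, 28.2 and 33.5 in IL4_IL13 and at 47.5, 49.2 and 52.8 in IL4_IL13_TNFa. Its groups formed 3 separate bands. It rose by 0.78 ± 0.09 with IL-4 and IL-13 (edgeR adjusted p = 6.91e-07), by 0.80 ± 0.09 with TNFa added (edgeR adjusted p = 2.36e-07) and by 1.58 ± 0.09 with the 3 cytokines (edgeR adjusted p = 1.09e-11), all on the log2 scale. Lss, lanosterol synthase, which closes the sterol rings, lay at 23.2, 27.6 and 42.7 CPM in Control, at 28.0, 32.0 and 35.3 in IL4_IL13 and at 52.8, 57.3 and 59.2 in IL4_IL13_TNFa. The Control and IL4_IL13 libraries overlapped, and every IL4_IL13_TNFa library was above both. The log2 fold change was 0.11 ± 0.11 with IL-4 and IL-13, which did not pass (edgeR adjusted p = 0.372; 0.25 without Control replicate 1, which passed), and 0.83 ± 0.11 with TNFa added (edgeR adjusted p = 1.66e-06).

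Hsd17b7, the sterol 3-ketoreductase of the pathway, lay at 6.72, 9.46 and 31.6 CPM in Control, at 10.2, 12.1 and 17.4 in IL4_IL13 and at 22.4, 23.8 and 26.3 in IL4_IL13_TNFa. The highest control, replicate 1, was above every treated library, while the next highest control was at 11.0 CPM. It rose by 0.92 ± 0.29 with TNFa added (edgeR adjusted p = 0.01), and for IL-4 and IL-13 its log2 fold change was -0.005 with all libraries but 0.52, past the threshold, without Control replicate 1. With the 3 cytokines it rose by 0.92, and by 1.43 without that library. Dhcr7, which reduces the double bond at carbon 7 in the last step to cholesterol, lay at 24.9, 26.4 and 37.7 CPM in Control, at 46.4, 49.6 and 53.4 in IL4_IL13 and at 25.7, 30.6 and 34.6 in IL4_IL13_TNFa. The IL4_IL13 libraries stood above both other groups, which overlapped. It rose by 0.80 ± 0.09 with IL-4 and IL-13 (edgeR adjusted p = 5.52e-07) and fell by 0.71 on the log2 scale with TNFa added (SE 0.09, edgeR adjusted p = 1.9e-06). For the 3 cytokines against Control it did not pass (0.10, edgeR adjusted p = 0.357), but did, at 0.20, without Control replicate 1, and its sign changed with scaling by library totals. Tm7sf2, 1 of the sterol C14-reductases, was the member of the route that fell with IL-4 and IL-13. Its exons overlap on the same strand those of Vps51, a gene at a mean of 68.2, 68.8 and 80.2 CPM in the 3 groups. How reads shared by these genes were assigned was not given. Tm7sf2 lay at 8.40, 9.22 and 10.5 CPM in Control, at 5.53, 6.25 and 6.81 in IL4_IL13 and at 5.55, 6.42 and 7.56 in IL4_IL13_TNFa. The controls, Control replicate 1 included, were above all treated libraries. The log2 fold change was -0.59 ± 0.08 with IL-4 and IL-13 (edgeR adjusted p = 1.07e-05), 0.05 ± 0.09 with TNFa added (edgeR adjusted p = 0.642; -0.16 with scaling by library totals) and -0.54 ± 0.09 with the 3 cytokines (edgeR adjusted p = 1.45e-05).

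The other members of the route were Sqle, Cyp51, Msmo1, Fdft1, Ebp and Sc5d. Sqle, squalene epoxidase, a rate-controlling enzyme of the pathway, was at 116 CPM in Control replicate 1 and 24.6 to 39.9 in the other controls, at 60.7 to 82.3 in IL4_IL13 and at 92.6 to 105.6 in IL4_IL13_TNFa. Its log2 fold changes of 0.56, 0.54 and 1.09 passed only for the 3 cytokines, and without Control replicate 1 they were 1.08, 0.54 and 1.62 and all passed. With the replicate number as a block it passed for IL-4 and IL-13 (0.70) and for TNFa added (0.57). Cyp51, lanosterol demethylase, rose by 0.68 ± 0.17 with IL-4 and IL-13 (edgeR adjusted p = 0.00224) and by 0.99 ± 0.17 with the 3 cytokines (edgeR adjusted p = 3.79e-05). Cyp51, Sqle and Msmo1 (sterol C4 methyl oxidase) were higher in every IL4_IL13_TNFa library than in any IL4_IL13 library, yet did not pass in the fit over all 18 libraries (edgeR adjusted p = 0.121, 0.0997 and 0.0522). In a fit of only the 12 libraries compared, or without Control replicate 1, all 3 passed. Msmo1 was at 0.27 for IL-4 and IL-13, which did not pass, and at 0.45, which did, without that library. Fdft1, squalene synthase, passed only for the 3 cytokines (0.58 ± 0.14, edgeR adjusted p = 0.000872), and with the replicate number as a block also for IL-4 and IL-13 (0.30). Without Control replicate 1 it rose with IL-4 and IL-13 (0.46) and with TNFa added (0.30) as well. Its exons overlap on the opposite strand those of Ctsb, a gene at a mean of 5882, 6398 and 5651 CPM in the 3 groups. Ebp, the sterol isomerase, rose by 0.37 with IL-4 and IL-13 and lay above every control in all treated libraries, with -0.05 for TNFa added, which did not pass. With scaling by library totals the value for TNFa added was -0.26 and passed, and the rise with the 3 cytokines (0.32) became 0.07 and did not. Sc5d, lathosterol oxidase, did not pass in any comparison with all 18 libraries (-0.20, 0.21 and 0.01). It passed for TNFa added without Control replicate 1 (0.20), and with scaling by library totals it was lower with IL-4 and IL-13 and with the 3 cytokines (-0.24 in each).

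**Figure D2:**
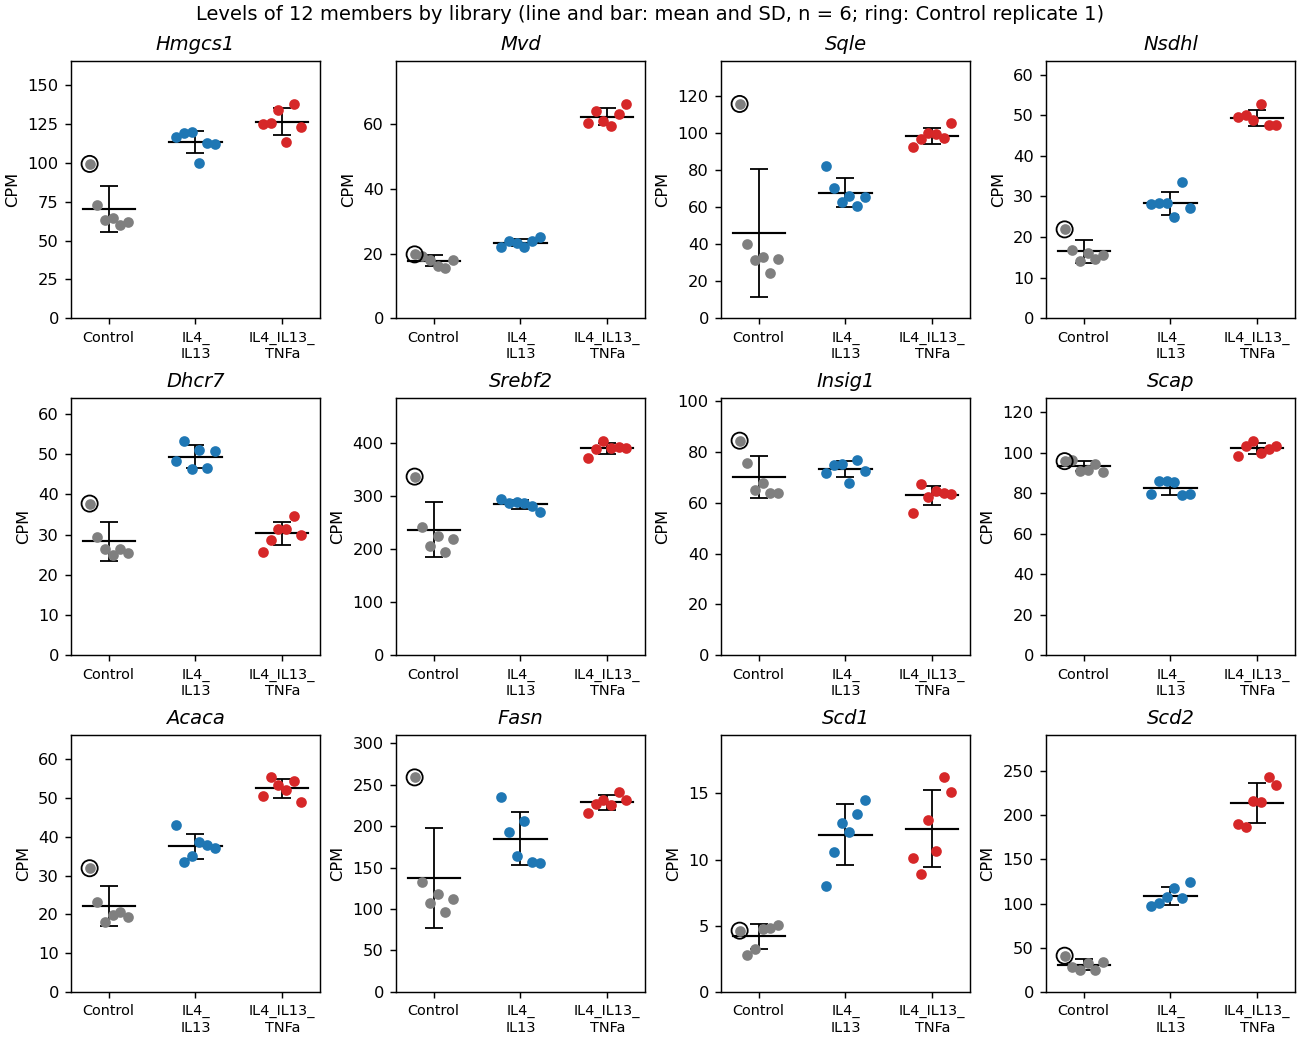
Points are the CPM of 12 members in each of 18 libraries, with the mean and SD of each group (n = 6) as a line and bar and a ring around Control replicate 1. Mvd, Nsdhl and Scd2 climb in separate steps, Dhcr7 is highest in IL4_IL13, Scap is lowest there, and the ringed control of Sqle, at 116 CPM, lies above all treated libraries.

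Of the regulators, Srebf2 changed most with TNFa added and with the 3 cytokines, and Srebf1 with IL-4 and IL-13. Srebf2, which encodes SREBP-2, lay at 194.0, 222.2 and 336.9 CPM in Control, at 269.3, 287.3 and 294.3 in IL4_IL13 and at 371.9, 391.1 and 404.8 in IL4_IL13_TNFa. The last group was above all other libraries, and apart from Control replicate 1 the controls were below both treated groups. It rose by 0.26 ± 0.09 with IL-4 and IL-13 (edgeR adjusted p = 0.022), a call lost without Control replicate 3, by 0.45 ± 0.09 with TNFa added (edgeR adjusted p = 0.00038) and by 0.72 ± 0.09 with the 3 cytokines (edgeR adjusted p = 1.47e-06). Srebf1, which encodes both SREBP-1 forms, not told apart by counts per gene, lay at 98.2, 108.4 and 134.9 CPM in Control, at 137.5, 140.1 and 144.5 in IL4_IL13 and at 128.1, 138.6 and 148.6 in IL4_IL13_TNFa. Every IL4_IL13 library was above every control, and the treated groups overlapped. The log2 fold change was 0.34 ± 0.06 with IL-4 and IL-13 (edgeR adjusted p = 0.000107) and -0.01 ± 0.06 with TNFa added (edgeR adjusted p = 0.848; -0.22, past the threshold, with scaling by library totals), and it was 0.33 ± 0.06 with the 3 cytokines (edgeR adjusted p = 8.89e-05), which became 0.08 and did not pass with scaling by library totals.

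Scap, the escort protein of the SREBPs, lay at 90.5, 93.0 and 96.1 CPM in Control, at 79.1, 82.7 and 86.1 in IL4_IL13 and at 98.3, 102.5 and 105.9 in IL4_IL13_TNFa. No groups overlapped, and the order was IL4_IL13, Control, IL4_IL13_TNFa. It fell by 0.17 on the log2 scale with IL-4 and IL-13 (SE 0.04, edgeR adjusted p = 0.000496), a call lost without the filter on low counts, and rose by 0.30 ± 0.04 with TNFa added (edgeR adjusted p = 6.66e-07). Against Control it was higher with the 3 cytokines by 0.13 ± 0.04 (edgeR adjusted p = 0.00305), but lower, at -0.12, with scaling by library totals. Insig1, a sterol-sensing retention protein that is itself an SREBP target, lay at 64.0, 66.3 and 84.5 CPM in Control, at 67.9, 73.7 and 76.7 in IL4_IL13 and at 56.1, 63.8 and 67.4 in IL4_IL13_TNFa. Every IL4_IL13_TNFa library was below every IL4_IL13 library, and the controls overlapped both. It fell by 0.22 on the log2 scale with TNFa added (SE 0.07, edgeR adjusted p = 0.00835), and its log2 fold change with IL-4 and IL-13 was 0.06 ± 0.07 (edgeR adjusted p = 0.432), and 0.12, past the threshold, without Control replicate 1. For the 3 cytokines it passed at -0.16 ± 0.07 (edgeR adjusted p = 0.0411) but not without Control replicate 1 (-0.09) nor with the replicate number as a block (-0.15).

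Of 3 other genes of SREBP processing, Insig2, a relative of Insig1, rose by 0.13 with IL-4 and IL-13 and fell by 0.43 on the log2 scale with TNFa added. Mbtps1, which encodes the first of the Golgi proteases, fell by 0.08 with TNFa added and by 0.16 with the 3 cytokines, and Mbtps2, the second, did not pass in any comparison. Stard4, a soluble carrier of cholesterol between membranes and a known SREBP-2 target, lay at 44.6, 49.1 and 82.0 CPM in Control, 59.1, 64.8 and 71.2 in IL4_IL13 and 53.4, 55.7 and 60.3 in IL4_IL13_TNFa. Control replicate 1 held its highest level, and the 2 treated groups overlapped. It passed for IL-4 and IL-13 at 0.28 ± 0.11 (edgeR adjusted p = 0.0413), a call lost when any of several single libraries, such as Control replicate 4, was left out, and with scaling by library totals. Without Control replicate 1 it rose with IL-4 and IL-13 (0.44) and with the 3 cytokines (0.23, from 0.06), and was lower with TNFa added (-0.22, a value that did not pass with all libraries). With scaling by library totals it was lower with TNFa added (-0.42), and the value for the 3 cytokines was -0.18 and did not pass.

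Fatty acid synthesis held the largest rises with IL-4 and IL-13, those of Scd2 and Scd1. Of its 6 members 4 rose and none fell with IL-4 and IL-13, 3 rose and none fell with TNFa added, and 5 rose and none fell with the 3 cytokines, where 29.3%, 30.3% and 36.4% of all genes rose. Leaving out Control replicate 1, 5, 4 and 5 of the 6 rose, against 35.5%, 33.3% and 39.0% of all genes. In that fit 1 member, Elovl6, fell with TNFa added, where 32.1% of all genes fell. Scd2, a stearoyl-CoA desaturase, which puts the first double bond into saturated fatty acids, lay at 24.3, 30.0 and 40.9 CPM in Control, at 97.1, 106.8 and 124.1 in IL4_IL13 and at 186.4, 215.5 and 243 in IL4_IL13_TNFa. The groups were far apart, with Control replicate 1 the highest control. It rose 3.56-fold with IL-4 and IL-13 (log2 1.83 ± 0.11, edgeR adjusted p = 1.29e-10), a further 1.97-fold with TNFa added (0.98 ± 0.11, edgeR adjusted p = 2.75e-07) and 7.01-fold with the 3 cytokines (2.81 ± 0.12, edgeR adjusted p = 9.3e-14). Scd1, the close paralog of Scd2 on the same chromosome, lay at 2.74, 4.69 and 5.03 CPM in Control, at 7.98, 12.4 and 14.5 in IL4_IL13 and at 8.89, 11.8 and 16.2 in IL4_IL13_TNFa. All treated libraries were above all controls and the treated groups overlapped each other. It rose 2.83-fold with IL-4 and IL-13 (log2 SE 0.18, edgeR adjusted p = 1.47e-06) and 2.94-fold with the 3 cytokines (log2 1.56 ± 0.18, edgeR adjusted p = 3.87e-07), and for TNFa added its log2 fold change was 0.06 ± 0.17 (edgeR adjusted p = 0.803), with the opposite sign under scaling by library totals. How the counting split reads between these paralogs is not given in the sources used here.

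Acaca, acetyl-CoA carboxylase, the committed step of fatty acid synthesis, lay at 17.9, 20.2 and 31.9 CPM in Control, at 33.4, 37.4 and 43.1 in IL4_IL13 and at 49.1, 52.8 and 55.3 in IL4_IL13_TNFa. Its 3 groups did not overlap. It rose by 0.76 ± 0.11 with IL-4 and IL-13 (edgeR adjusted p = 7.95e-06), 0.48 ± 0.11 with TNFa added (edgeR adjusted p = 0.000621) and 1.25 ± 0.11 with the 3 cytokines (edgeR adjusted p = 4.84e-09). Acly, which makes cytosolic acetyl-CoA from citrate, rose by 0.30 ± 0.06 with TNFa added (edgeR adjusted p = 0.000128) with no overlap of libraries, though it did not pass, at 0.10, with scaling by library totals. Its rise of 0.15 with IL-4 and IL-13 did not pass when any of several single libraries, such as Control replicate 3, was left out, nor with scaling by library totals. Fasn, fatty acid synthase, was at 258.9 CPM in Control replicate 1 and 95.8 to 131.9 in the other controls, at 155.3 to 235.0 in IL4_IL13 and at 215.4 to 241.4 in IL4_IL13_TNFa. It passed only for the 3 cytokines (0.74 ± 0.19, edgeR adjusted p = 0.00186). Without Control replicate 1 it passed for IL-4 and IL-13 (0.71) and for TNFa added (0.31), and with the replicate number as a block for IL-4 and IL-13 (0.48). Elovl6, which lengthens palmitate, was at mean levels of 11.4, 11.2 and 8.73 CPM and had no call in any comparison with all 18 libraries, with a log2 fold change of -0.36 for TNFa added. That difference passed without Control replicate 1 (-0.36), in the fit of only the libraries compared (-0.37) and with scaling by library totals (-0.56), where the value for the 3 cytokines passed too (-0.64).

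**Figure D3:**
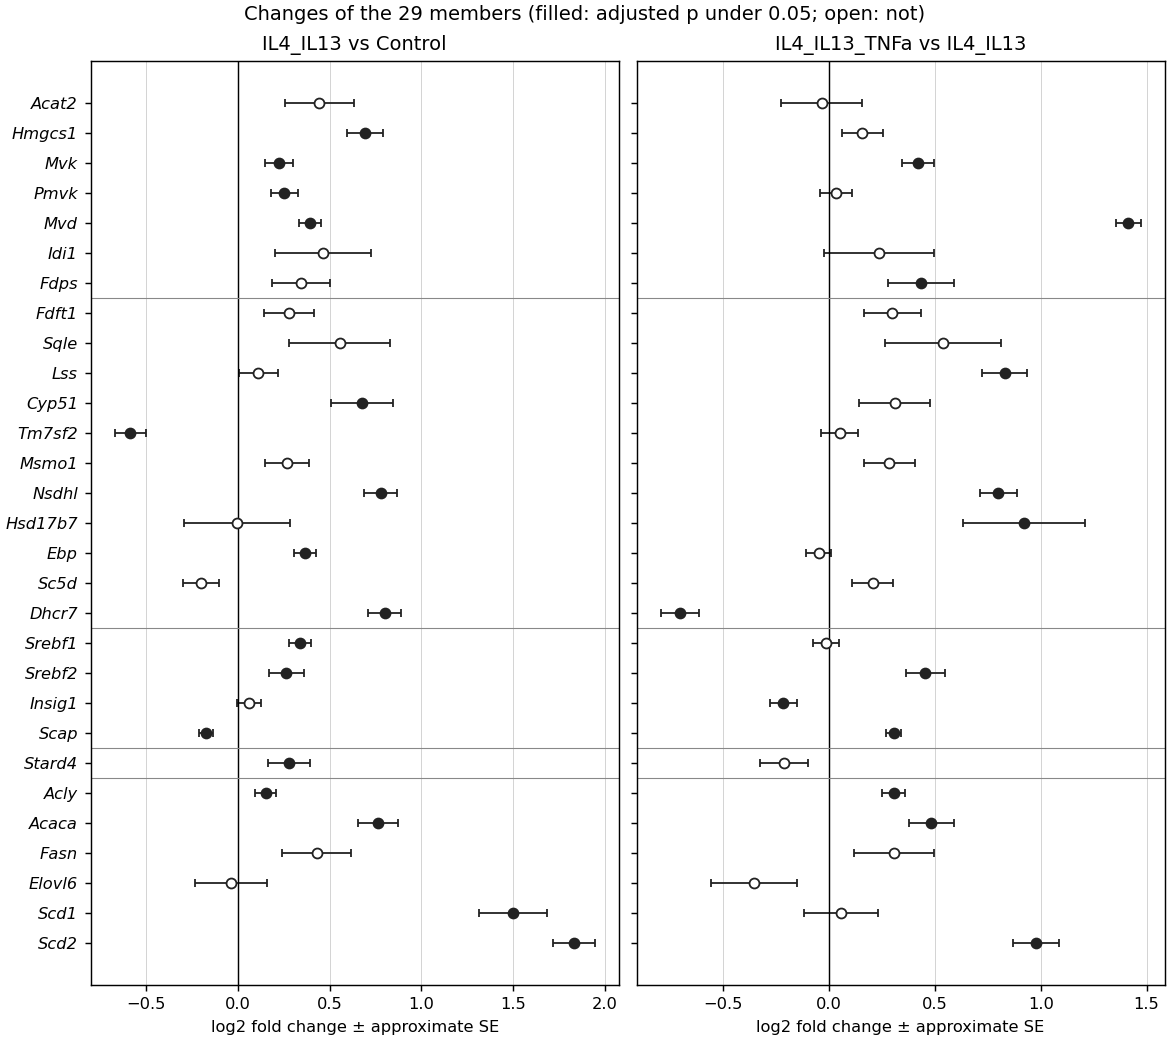
Points are the log2 fold changes of the 29 members with approximate standard errors, for IL4_IL13 against Control on the left and IL4_IL13_TNFa against IL4_IL13 on the right, and filled points passed an adjusted p of 0.05. Scd2 (1.83) and Scd1 (2.83-fold) lead the left panel, Mvd (1.41) and Scd2 (0.98) the right, and Dhcr7 lies far above 0 on the left (0.80) and far below on the right (-0.71).

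Taking both steps in turn, the 29 members followed 8 patterns with all libraries. Of all genes 29.3% rose at the first step and 30.3% at the second (35.5% and 33.3% without Control replicate 1). The share of all genes following each pattern was not counted. There were 7 members that rose at both, namely Mvk, Mvd, Nsdhl, Srebf2, Acly, Acaca and Scd2. A further 7 rose with IL-4 and IL-13 and did not pass for TNFa added, 3 did the reverse (Fdps, Lss and Hsd17b7), and 8 passed at neither. Dhcr7 was the 1 member that rose and then fell, Scap the 1 that fell and then rose, Tm7sf2 fell only at the first step, and Insig1 only at the second. Without Control replicate 1 the patterns differed: 16 members rose at both steps, adding Hmgcs1, Fdps, Fdft1, Sqle, Lss, Cyp51, Msmo1, Hsd17b7 and Fasn to the 7, and 6 rose only at the first. Dhcr7, Insig1 and Stard4 rose and then fell, Sc5d rose and Elovl6 fell only at the second step, Scap and Tm7sf2 kept their patterns, and no member passed at neither. Both steps share the IL4_IL13 libraries, so a chance deviation there would move a member in opposite directions at the 2 steps.

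Per kilobase of exon, taken as the union of a gene's annotated exons, the order of the members changed with treatment. Ranks between genes depend on that length, which need not be that of the transcripts expressed. Acly led in Control and IL4_IL13, at means of 39.3 ± 4.49 and 43.6 ± 1.35 CPM per kb (SD, n = 6). Srebf2 was next in both, at 33.0 ± 7.18 and 39.7 ± 1.21. In Control their levels overlapped within 1 SD. With the 3 cytokines Srebf2 (54.3 ± 1.48) and Acly (53.8 ± 0.711) differed by less than 1 SD. Scd2 went from rank 17 in Control to 7 in IL4_IL13 and 3 in IL4_IL13_TNFa, where it was at 39.2 ± 4.19 CPM per kb, and Mvd from rank 12 to 10 and 4. Insig1 went from rank 3 to 5 and 9. Scd1, Elovl6, Idi1, Acaca and Tm7sf2 stayed between rank 25 and rank 29.

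The summed level of the 18 enzymes of cholesterol synthesis was 376.2 to 752.0 CPM in Control, 628.7 to 665.4 in IL4_IL13 and 788.0 to 847.0 in IL4_IL13_TNFa. The 2 treated groups did not overlap, and Control replicate 1, at 752.0, was above all IL4_IL13 libraries. The 6 fatty acid members summed to 343.1 to 611.4, 546.8 to 635.5 and 761.5 to 846.5 CPM, in the same order. Proliferation genes, which dividing cells express, moved otherwise: their sum was 806.3 to 3043 CPM in Control, 1714 to 3031 in IL4_IL13 and 329.0 to 470.6 in IL4_IL13_TNFa, with 6 of 12 higher and none lower for IL-4 and IL-13 and 12 of 12 lower for TNFa added. In bulk RNA, fewer cells of a kind and less RNA per cell cannot be told apart. The part of proliferation in the member levels was not tested. Within Control and within IL4_IL13 the library numbered 1 had the highest sum of proliferation genes and also of both member groups. Within IL4_IL13_TNFa that library had the highest proliferation sum, 470.6 CPM, and the lowest member sums, 788.0 and 761.5 CPM. Between groups, the IL4_IL13_TNFa libraries had the lowest proliferation sums and the highest member sums.

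**Figure D4:**
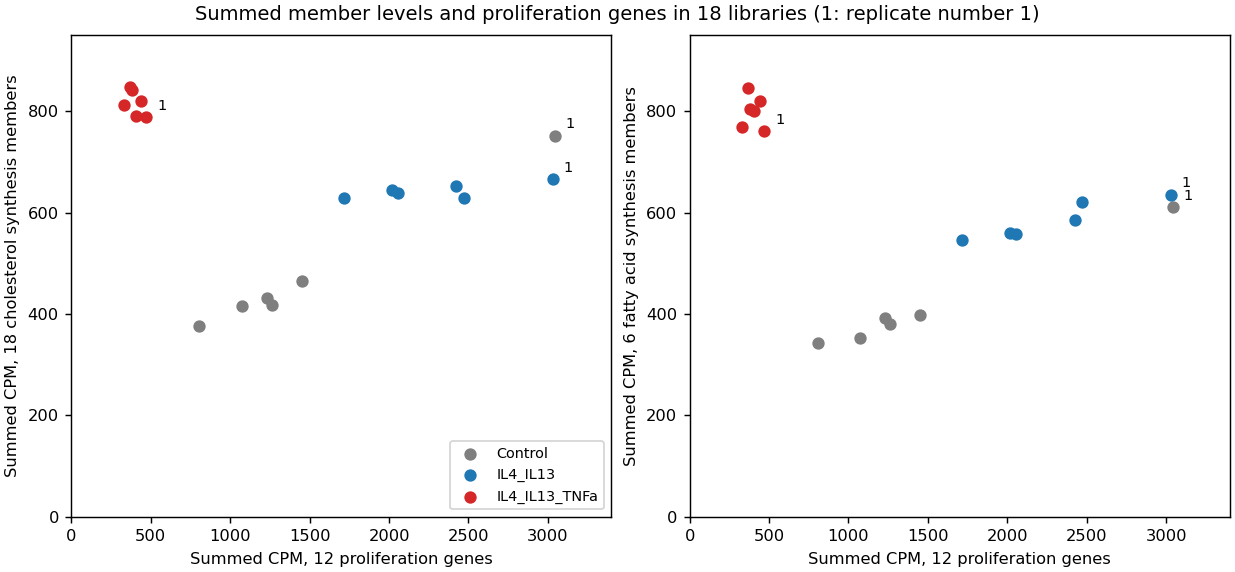
Each point is 1 library, with the summed CPM of 12 proliferation genes on the horizontal axis and of the 18 cholesterol synthesis (left) or 6 fatty acid synthesis members (right) on the vertical axis, and a 1 beside the libraries numbered 1. The IL4_IL13_TNFa libraries sit at 329.0 to 470.6 CPM of proliferation genes with the highest member sums, and Control replicate 1 lies beside IL4_IL13 replicate 1.

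Other lipogenic genes, from a list of 12 not counted among the members, passed in both directions. With IL-4 and IL-13, 3 rose and 2 fell; with TNFa added, 3 rose and 4 fell; with the 3 cytokines, 4 rose and 4 fell. Of all genes 29.3%, 30.3% and 36.4% rose in these comparisons and 29.7%, 29.3% and 37.3% fell. Acss2, which makes acetyl-CoA from acetate and is a known SREBP target, went from a mean of 8.21 CPM in Control and 6.49 in IL4_IL13 to 53.2 in IL4_IL13_TNFa, a log2 fold change of 3.04 ± 0.15 with TNFa added (edgeR adjusted p = 2.1e-12). Me1, malic enzyme, a source of NADPH for lipid synthesis, rose by 1.15 with TNFa added, and Elovl1, an elongase of very long chains, by 0.49. The desaturase Fads1 fell by 0.33 with IL-4 and IL-13 and 0.66 with TNFa added, Fads2 by 0.82 with TNFa added, and the phosphatidate phosphatase gene Lpin1 rose by 0.85 and then fell by 1.65 on the log2 scale. Mid1ip1, an activator of acetyl-CoA carboxylase, fell by 0.76 with IL-4 and IL-13, and Elovl5 rose by 0.51. Of 7 other isoprenoid and sterol genes, 4 rose and 1 fell with IL-4 and IL-13, and 1 rose and none fell with TNFa added, to be read against the same shares of all genes. Cyb5r3, the cytochrome b5 reductase that feeds electrons to sterol and fatty acid desaturation, rose by 0.67 and then 0.52. Pdss1, a subunit of the enzyme that makes the side chain of coenzyme Q, rose by 1.13, Tmem97, a sterol-regulated membrane protein, by 0.60 and Aacs, acetoacetyl-CoA synthetase, by 0.26, each with IL-4 and IL-13. Ggps1, geranylgeranyl diphosphate synthase, fell by 0.26 with IL-4 and IL-13 and by 0.32 with the 3 cytokines.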

How the data were processed

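The deposited table holds whole-number read counts per gene, not normalized, made by the authors from stranded poly(A) libraries, per the labels' protocols and the values. The submitters' processing notes name RSEM 1.3.0, FastQC 0.11.5, featureCounts 1.5.1, the STAR versions 2.5.2b and 2.5.2, bcl2fastq 2.20.0.422 and the genome builds GRCm38 and mm10. Which annotation was counted, in which strand mode and how shared reads were assigned was not given in the sources used here. Of the 29 members, 11 share exonic bases with another gene (7 of them on the opposite strand only), so their counts are uncertain in that respect.

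Genes were filtered by filterByExpr of edgeR 4.0.16 (minimum count 10) in R 4.3.3, scaled by TMM, and all 18 libraries were fitted in a robust quasi-likelihood model. There were 3 contrasts, tested at an adjusted p of 0.05 over 13177 genes. The standard error of a log2 fold change is its size over the square root of F. CPM use TMM-scaled library sizes. Libraries of a group were compared for duplicates, and over 45 pairs chi-square divided by its degrees of freedom was at least 2.72. Groups share replicate numbers. Same-numbered libraries deviated from their group means together in all 18 pairs (r 0.128 to 0.671), 16 of them best matches. No label states a pairing. The main fit held the group only and ignored the replicate number, which entered as a block in an alternative fit.

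Members and lists were chosen with earlier results of these data known. Full values are given for members past the threshold with no overlap between groups (up to 6 per direction and comparison) and for the regulators, and from the other lists up to 4 genes per comparison; further genes were added after their values were seen. The values of 1 gene of the isoprenoid and sterol list are not reported here. Alternatives were DESeq2 size factors, library totals, no filter, a filter at 5 CPM in 6 libraries, DESeq2 1.42.0, limma voom 3.58.1, a replicate block, only the libraries compared, each library left out and the 3 numbered 1 left out. The scripts were tested on simulated counts. Promoters are RefSeq's (GRCm38.p6). The shares of genes with given letters count whole windows, including the bases after the start. Only the stretches shown were limited to bases before the start and cut back where they ran into an exon. Isoforms of Srebf1 and reads shared by Scd1 and Scd2 cannot be separated here.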

Additional observations from a re-analysis of the deposited data

Results flagged for a closer look

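Each group of 6 libraries was checked for a highest or lowest value far from the others, as a gap to the nearest library, relative to the group's range, beyond Dixon's critical value for 6 values. By chance about 1 in 20 independent groups would go beyond this value. The groups here were not independent, since members share libraries and the sums are made of members, so their number is not read against that rate. Of 93 such groups (29 members and 2 sums in 3 groups of libraries) 23 went beyond it, and 22 of the 23 were in Control replicate 1. There the CPM was 16.6 for Acat2, 99.2 for Hmgcs1, 15.8 for Pmvk, 8.54 for Idi1 and 15.4 for Fdps in the mevalonate arm. From squalene on it was 35.0 for Fdft1, 116 for Sqle, 42.7 for Lss, 88.1 for Cyp51, 96.4 for Msmo1, 21.9 for Nsdhl, 31.6 for Hsd17b7 and 37.7 for Dhcr7. It was 134.9 for Srebf1, 336.9 for Srebf2 and 82.0 for Stard4, and 253.7 for Acly, 31.9 for Acaca, 258.9 for Fasn and 21.5 for Elovl6. The summed CPM in that library was 752.0 for cholesterol synthesis and 611.4 for fatty acid synthesis, against at most 464.6 and 398.1 in the other controls. The remaining value was Hsd17b7 at 17.4 CPM in IL4_IL13 replicate 1, where the next highest library was at 12.8 CPM.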

How the results depend on the processing

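Counts of members higher and lower kept within 1.5 times of their values with DESeq2's size factors, the stricter filter, DESeq2 and limma voom. Without single libraries, members higher ranged from 12 to 25, 10 to 18 and 21 to 25 in the 3 comparisons (IL4_IL13 against Control, TNFa added, and the 3 cytokines), members lower from 2 to 3, 2 to 4 and 1 to 3, and genes changed from 7179 to 9081, 7517 to 8727 and 9472 to 10371. The highest counts of members higher and of genes changed were all without Control replicate 1. Without the 3 libraries numbered 1, members higher were 25 for IL4_IL13 against Control, where 35.1% of all genes rose. In the same fit they were 18 for TNFa added, where 33.3% rose. Members lower were 1 for the 3 cytokines, where 38.6% of all genes fell. In fits of only the libraries compared, members higher were 18 and lower 4 for TNFa added, where 8182 genes changed in either direction. In these fits members lower were 1 for the 3 cytokines, where 9383 genes changed. With scaling by library totals, members lower were 7 for TNFa added and 5 for the 3 cytokines, where 46.2% and 51.4% of all genes fell. Without the filter on low counts they were 1 for IL4_IL13 against Control and 1 for the 3 cytokines. Among alternative fits, shares of all genes by direction are given only without Control replicate 1, without the libraries numbered 1 and with library totals. Counts from the other alternatives, the replicate block included, cannot be read against such shares.

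The replicate number as a block gave 20, 12 and 23 members higher, 2, 2 and 1 lower, and 8632, 8516 and 10185 genes changed in either direction. The shares of all genes that rose or fell are not given for this fit. Besides the calls given above, the block changed none except Fdft1, which passed for IL-4 and IL-13 (0.30). Among values that passed with all libraries or under the alternative, signs turned for Hsd17b7 in IL4_IL13 against Control (from -0.13 to 0.52 without single libraries, the highest without Control replicate 1, and 0.40 without the libraries numbered 1). With scaling by library totals they turned for Pmvk with TNFa added (-0.17), and for Sc5d (-0.24) and Scap (-0.12) with the 3 cytokines, and among values that passed in neither for Hmgcs1, Tm7sf2, Sc5d and Scd1 with TNFa added and Dhcr7 and Stard4 with the 3 cytokines. The cause of these shifts was not tested. For IL4_IL13 against Control the widest standard errors were those of Hsd17b7 (0.29), Sqle (0.28) and Idi1 (0.26). Counts per gene do not separate isoforms, paralogs or overlapping genes.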

Other observations

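Genes of cholesterol efflux, storage and the oxysterol receptor LXR, a list of 10, passed in both directions: 3 rose and 3 fell with IL-4 and IL-13, 3 rose and 4 fell with TNFa added, and 4 rose and 3 fell with the 3 cytokines. These counts are near the shares of all genes, of which 29.3%, 30.3% and 36.4% rose and 29.7%, 29.3% and 37.3% fell. Abca1, a cholesterol exporter, went from a mean of 351.2 CPM in Control to 88.2 in IL4_IL13 and 467.6 in IL4_IL13_TNFa, with log2 fold changes of -1.99 ± 0.26 and 2.41 ± 0.26 at the 2 steps (edgeR adjusted p = 2.9e-06 and 2.13e-07). Abcg1, another exporter, moved the other way, from 152.4 to 459.5 and 267.4 CPM (1.59 ± 0.27 and -0.78 ± 0.26, edgeR adjusted p = 6.76e-05 and 0.0162). Mylip, a ubiquitin ligase for lipoprotein receptors, fell at both steps (-1.74 and -0.70), as did Apoe (-1.74 and -1.03), the apolipoprotein E gene. Libraries overlapped for Abca1 with IL-4 and IL-13, for Abcg1 with TNFa added and for Apoe at both steps. They did not for Mylip at either step, Abca1 with TNFa added or Abcg1 with IL-4 and IL-13. Values without Control replicate 1 are not given for this list. Nr1h3, which encodes LXR alpha, rose by 0.91 with TNFa added, and Npc2, a lysosomal cholesterol carrier, by 0.74. Soat1, which esterifies cholesterol for storage, rose by 0.33 with IL-4 and IL-13, and Ch25h, which makes 25-hydroxycholesterol, fell by 1.79 on the log2 scale with the 3 cytokines.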
